A study of Mus musculus with 16 samples.

Results

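The renin-angiotensin and kinin genes Ace, Enpep, Agt, Agtr1a, Mas1 and Bdkrb2 were followed in the transcriptome of lung endothelial cells (ECs). These 6 genes were chosen by name from the 43346 genes of the count table, and all 6 were found in it. RNA was sequenced from ECs of FVB mice in 4 groups, namely 5 libraries of Young Sham, 4 of Young Bleo, 3 of Aged Sham and 4 of Aged Bleo mice. Young mice were 2 months and aged mice 18 months old, bleomycin given into the airway injured the lung, and sham mice received the carrier without the drug. All lungs were taken at a single time after treatment, which the study places in the early resolution of fibrosis. According to the study's methods all mice carried a Col1a1-GFP reporter, a transgene that marks collagen-producing cells, and ECs were sorted as CD31+, CD45-, EpCAM- and GFP- cells. The study took these ECs from the lungs it also used for a chromatin assay, in which each data point is a mouse, so the libraries are taken as separate mice, although the labels do not name them.

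In the renin-angiotensin system, renin cuts the liver protein angiotensinogen (Agt), and angiotensin-converting enzyme (Ace) on the surface of lung capillaries turns the resulting peptide into angiotensin II. Angiotensin II constricts vessels through the type 1 receptor (Agtr1a), is shortened by aminopeptidase A (Enpep), and is opposed by peptides that signal through the Mas receptor (Mas1). In the kinin system, kallikreins release bradykinin from kininogen, bradykinin acts on endothelium through the B2 receptor (Bdkrb2), and Ace also breaks bradykinin down, which links both systems in the lung vessel wall. Agtr1a is known in the vessel wall mainly from smooth muscle and pericytes, the contractile cells that wrap capillaries.

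Library totals ranged from 20.9 to 71.0 megacounts. The endothelial markers Pecam1, Cdh5, Cldn5, Kdr, Tie1, Erg and Vwf were high in every library, with summed normalized counts of 278756 to 527361. RNA of cells outside the sort gate was also present, since the surfactant gene Sftpc lay between 3590 and 31558 normalized counts and the myeloid gene Lyz2 between 2724 and 161722. In bulk RNA, fewer cells of a type and less RNA per cell cannot be told apart. All 16 libraries expressed 4 Y-linked genes at 200 or more normalized counts, with Xist at most at 39.0, while the study's methods describe mice of both sexes.

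Mice have 2 type 1 receptors, Agtr1a on chromosome 13 and Agtr1b on chromosome 3, and the changes below concern the first, so their coding sequences were compared to see whether reads can separate them. The first 90 coding bases of each (GENCODE M21 transcripts, GRCm38) are shown 5′ to 3′, with capitals at the bases where the 2 genes differ.
Agtr1a: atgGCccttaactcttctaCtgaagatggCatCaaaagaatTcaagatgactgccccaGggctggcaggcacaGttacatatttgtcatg
Agtr1b: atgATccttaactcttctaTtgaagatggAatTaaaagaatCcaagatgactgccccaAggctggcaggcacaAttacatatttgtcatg
This stretch holds 8 differences. Over the 1080 coding bases the genes were 90.8% identical, the longest identical run was 66 bases, and none of 981 windows of 100 bases, the read length in the study's methods, was shared. Agtr1b had 1 count in 1 library. How reads that match both genes were handled is not given in the sources used here.

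Levels were compared between genes per length, as FPKM (fragments scaled to gene length and library total, from the deposited table). Ace stood far above the other members, with an FPKM of 73.0 to 215 in the 16 libraries and place 163 of 43346 genes by mean FPKM. Bdkrb2 followed at 2.05 to 23.4 FPKM and place 2718. Agtr1a (mean 0.409 FPKM), Enpep (0.313) and Agt (0.122) were low, and Mas1 was close to absent.

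**Figure D1:**
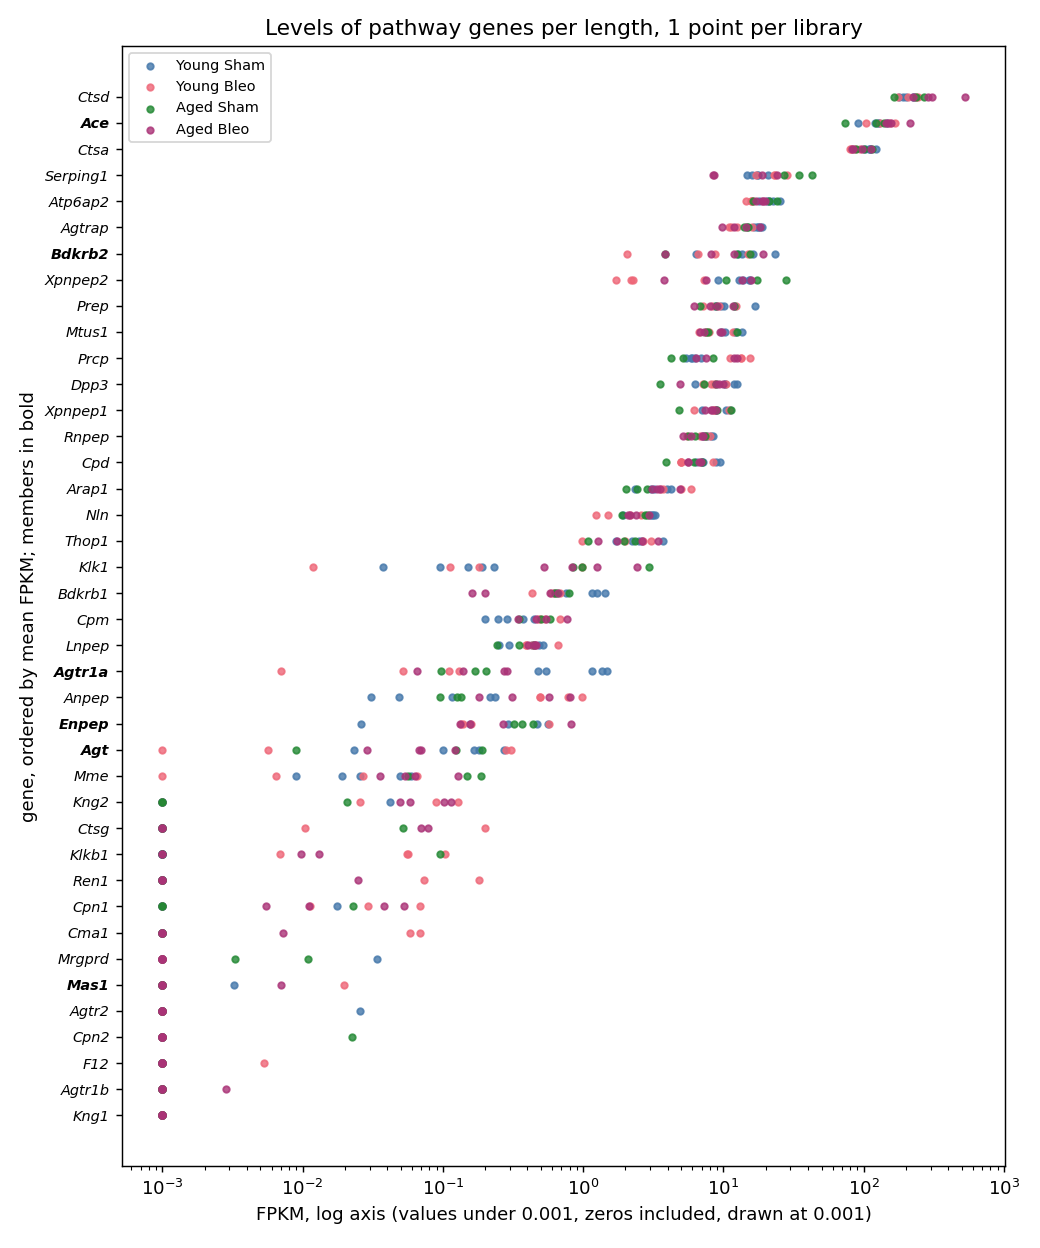
FPKM of the 6 members (bold) and of other angiotensin and kinin pathway genes on a log axis, 1 point per library and coloured by group, with values under 0.001, zeros included, drawn at 0.001. Ace and the protease Ctsd sit near the top, Bdkrb2 lies between 2.05 and 23.4, and Mas1, Kng1, Agtr1b and Agtr2 lie at the bottom.

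Ren1, the renin gene, had counts in 3 libraries, Young Bleo replicates 17 and 19 and Aged Bleo replicate 5, with at most 28 counts. Kng1, which encodes a kininogen, had 0 counts in all 16 libraries, and 3 counts would be its upper limit in each. Kng2, the second kininogen gene on the list and named after its values were seen, had counts in 9 libraries, at 12.5, 31.0, 14.4 and 25.1 normalized counts in Aged Bleo, 22.5, 32.2, 6.61 and 0 in Young Bleo, and at most 5.77 in Aged Sham and 10.2 in Young Sham. Agtr2, the type 2 angiotensin receptor, had 9 counts, all in Young Sham replicate 25. The ECs thus held RNA for the converting enzyme and the B2 kinin receptor, with next to no RNA for Ren1, Kng1 or Agtr2.

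Group differences were tested with DESeq2 on the counts of all genes, and a call needed an adjusted p (Benjamini-Hochberg) no higher than 0.05 together with a log2 fold change of 0.5 or more in either direction. Agtr1a was the single member called. It was lower in Aged Sham, Young Bleo and Aged Bleo than in Young Sham, and its change with bleomycin differed between ages. Of the 6 members, 5 had an adjusted p, and Mas1 had too few counts for one.

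Agtr1a (ENSMUSG00000049115, mm10 chromosome 13, 30336441 to 30382867, protein-coding) had normalized counts of 367, 327, 115, 144 and 294 in the Young Sham libraries. The Young Bleo libraries had 1.73, 27.0, 13.2 and 30.1, the Aged Sham libraries 28.0, 55.4 and 43.9, and the Aged Bleo libraries 34.5, 17.7, 66.6 and 70.6. Every Young Sham library lay above every library of the other 3 groups, which overlapped each other. In raw reads the Young Bleo values rest on 2, 26, 12 and 39 counts, and the Young Sham values on 56 to 397.

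The mean normalized count was 250 ± 113 (SD, n = 5) for Young Sham. The other means were far lower, at 47.3 ± 25.5 (SD, n = 4) for Aged Bleo, 42.4 ± 13.8 (SD, n = 3) for Aged Sham and 18.0 ± 13.1 (SD, n = 4) for Young Bleo. Between Young Sham and Aged Sham, Agtr1a fell by 2.55 on the log2 scale (SE 0.63, DESeq2 adjusted p = 0.00417). The same libraries gave an adjusted p of 0.106 with edgeR's quasi-likelihood test, and 8.13e-06 to 0.106 over 12 alternative fits. The drop with age in uninjured mice was thus called by DESeq2 and not by edgeR.

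Between Young Sham and Young Bleo, Agtr1a decreased by 3.79 (SE 0.59, DESeq2 adjusted p = 2.34e-08; edgeR adjusted p = 0.00417, range over 13 alternatives 6.43e-09 to 0.00417). In Aged Bleo it was lower than in Young Sham by a log2 fold change of -2.40 (SE 0.57, DESeq2 adjusted p = 0.000816; edgeR adjusted p = 0.0335, range 3.47e-05 to 0.0335). Both tools made both calls. These 3 comparisons share the Young Sham libraries and are not independent of each other.

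In aged mice Agtr1a did not move past the threshold with bleomycin. The log2 fold change of Aged Bleo against Aged Sham was 0.15 with a 95% interval of -1.15 to 1.45 (DESeq2 adjusted p = 0.947). Aged Bleo lay above Young Bleo by 1.39, with an interval of 0.18 to 2.61 and a DESeq2 adjusted p of 0.370. The bleomycin response, taken as aged minus young, differed by 3.94 (SE 0.88, 95% interval 2.21 to 5.67, DESeq2 adjusted p = 0.0102). With edgeR the adjusted p of that difference was 0.336, and it ranged from 0.00166 to 0.336 over 19 alternatives. Every fit that left out a single library kept the DESeq2 call of Agtr1a in the 4 contrasts where it was called.

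**Figure D2:**
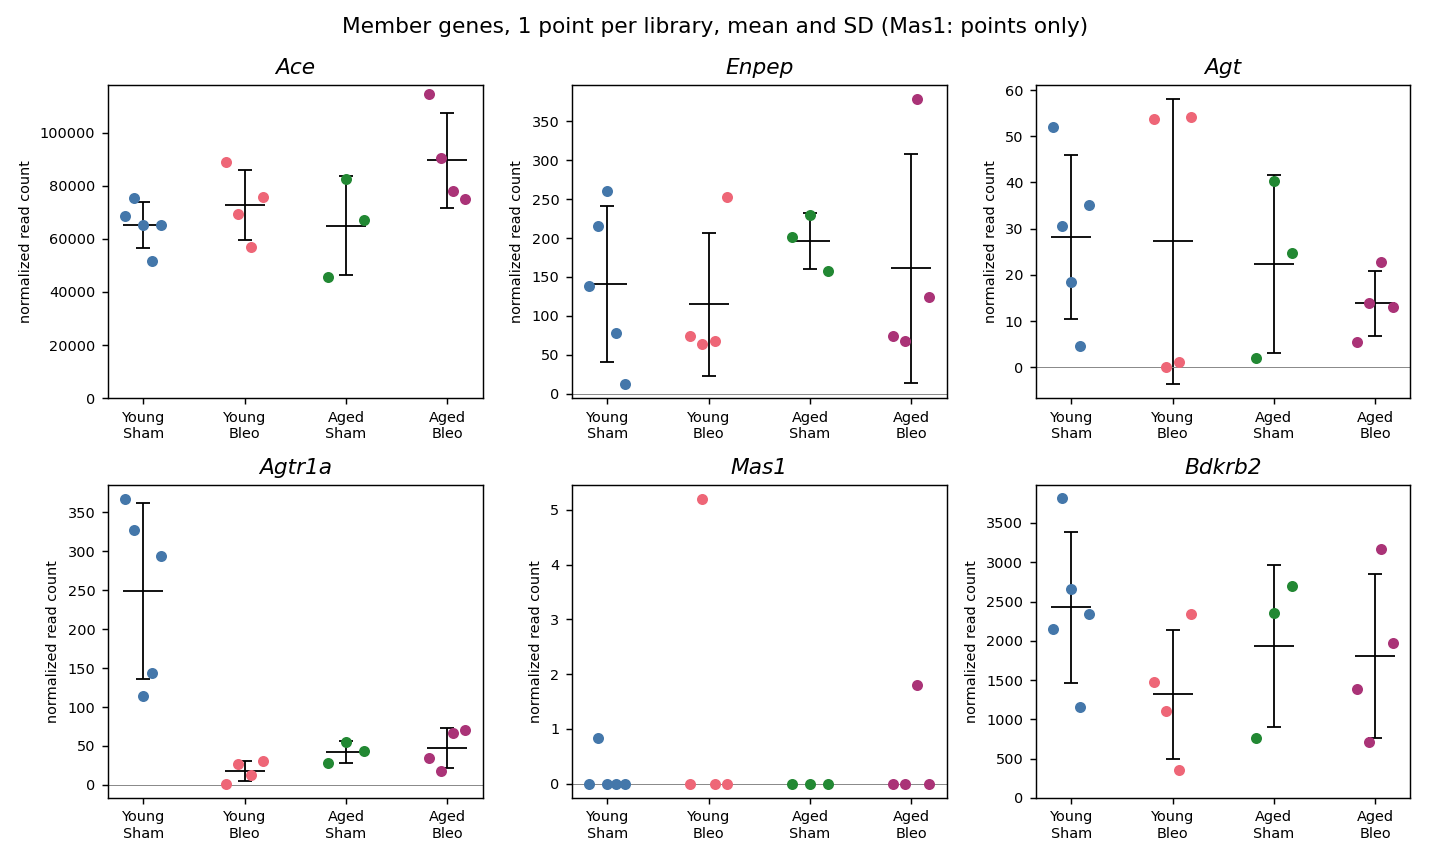
Normalized read counts of the 6 members in 4 groups, 1 point per library, with a bar at the mean and whiskers of 1 SD (points only for Mas1). In the Agtr1a panel the 5 Young Sham libraries sit at 115 to 367 and no other library exceeds 70.6, whereas the groups overlap in the other panels.

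Markers of contractile cells, which express Agtr1a, were lower where Agtr1a was lower than in Young Sham, but not in step with it. A list of 13 pericyte and smooth muscle genes had summed normalized counts of 11665 to 25554 in Young Sham, 7264 to 12643 in Aged Sham, 4233 to 10273 in Young Bleo and 2844 to 5361 in Aged Bleo, and none of the 13 was at 0 throughout a group. Against Young Sham, DESeq2 called 3 of the 13 (Cspg4, Rgs5 and Higd1b) lower in Aged Sham, where it called 3.36% of all genes, with 0 calls by edgeR (6 at an unadjusted p under 0.05). It called 6 of 13 lower in Young Bleo (13.9% of all genes, 4 of 13 with edgeR) and 11 of 13 in Aged Bleo (9.73%, 10 of 13 with edgeR). Between Aged Sham and Aged Bleo all 13 had a negative log2 fold change, with a median of -1.31, and DESeq2 called 3 of them lower (Acta2, Cnn1 and Tagln; 5.85% of all genes; 0 with edgeR, 7 at an unadjusted p under 0.05), while Agtr1a was at 0.15 there.

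Agtr1a did not keep a fixed ratio to that sum. Per 1000 normalized counts of the 13 markers, it had 7.18 to 25.2 in Young Sham, 2.21 to 7.62 in Aged Sham, 0.409 to 5.97 in Young Bleo and 5.74 to 17.2 in Aged Bleo. The Young Bleo ratios lay below all Young Sham ratios, while the Aged Bleo ratios overlapped those of Young Sham. The sum of the 7 endothelial genes was also highest in Young Sham, while its members went both ways. It was 476909 to 527361 in Young Sham, above every library of Aged Sham (439094 to 472631), Young Bleo (278756 to 438387) and Aged Bleo (296301 to 432333). Against Young Sham, DESeq2 called 1 of 7 in Aged Sham (Erg, higher; 3.36% of all genes; 0 with edgeR, 4 at an unadjusted p under 0.05), 3 of 7 in Young Bleo (Erg higher, Cldn5 and Kdr lower; 13.9%; 3 with edgeR) and 4 of 7 in Aged Bleo (Erg and Vwf higher, Cldn5 and Kdr lower; 9.73%; 3 with edgeR). The 5 markers of aerocytes, the gas-exchange capillary ECs, summed to 333931 to 460834 in Young Sham and 44192 to 195100 in Young Bleo, where both tools called all 5 lower (13.9% of all genes with DESeq2, 9.78% with edgeR). In Aged Sham the sum was 282246 to 415366, with 0 of 5 called by DESeq2 or edgeR (0 at an unadjusted p under 0.05). In Aged Bleo it was 42160 to 274329, all 5 had a negative log2 fold change, and DESeq2 called 2 lower (9.73% of all genes; 0 with edgeR, 3 at an unadjusted p under 0.05). Of 5 markers of general capillary ECs, both tools called 2 lower in Aged Sham (Aplnr and Kit, beside 3.36% and 0.862% of all genes). Both called 2 higher in Young Bleo (Cd93 and Gpihbp1, 13.9% and 9.78%), as DESeq2 did in Aged Bleo (9.73%, 0 with edgeR). Of 5 artery markers both called 3 higher in Young Bleo and in Aged Bleo (9.73% and 5.69%), and 0 in Aged Sham. Over the 16 libraries, Pearson's r of log2(value + 1) for Agtr1a was 0.797 with the endothelial, 0.747 with the aerocyte and 0.625 with the contractile cell sum. It was -0.301 with the general capillary and -0.652 with the artery sum. After group means were subtracted, these were 0.588, 0.546, 0.328, -0.08 and -0.296, as a description with no test. The part of contractile cell, endothelial, aerocyte, general capillary and artery RNA in the Agtr1a result was not tested.

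**Figure D3:**
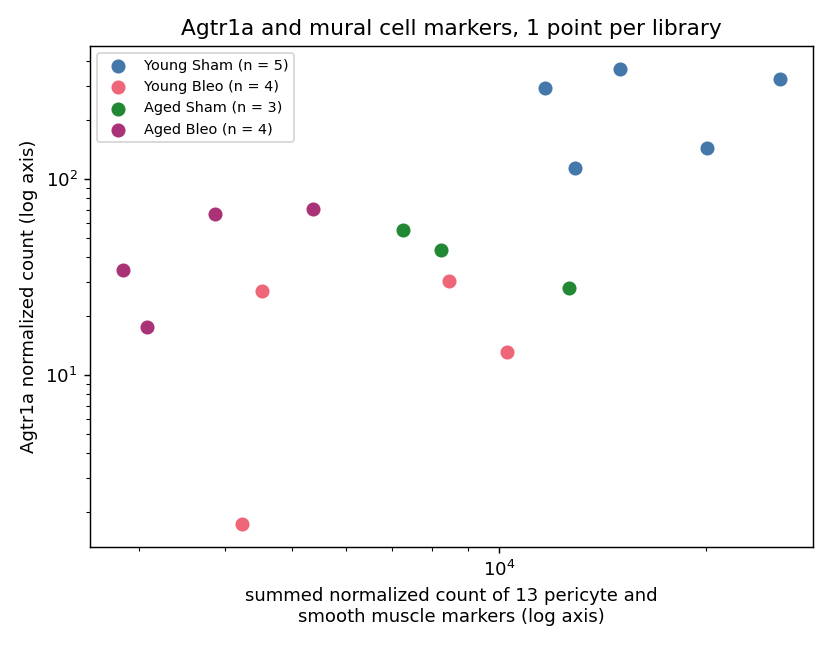
Normalized count of Agtr1a against the summed normalized count of 13 pericyte and smooth muscle markers, 1 point per library, both on log axes. Young Sham libraries sit at the upper right, Aged Bleo libraries have the lowest marker sums (2844 to 5361), and Young Bleo libraries have low Agtr1a for their marker sums.

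In numbers of members, DESeq2 called 1 of 5 tested in Aged Sham against Young Sham, where 3.36% of all genes tested were called, and edgeR called 0 of 5 (0.862% of all genes; 1 member at an unadjusted p under 0.05). In Young Bleo against Young Sham both tools called 1 of 5 (13.9% of all genes with DESeq2 and 9.78% with edgeR). In Aged Bleo against Young Sham both called 1 of 5 as well (9.73% and 5.69%). With so few members, these counts do not set the list apart from the background.

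In Aged Bleo against Aged Sham both tools called 0 of 5 (5.85% and 0.797% of all genes), with 1 member, Ace, at an unadjusted p under 0.05 in each. In Aged Bleo against Young Bleo both called 0 of 5 (1.01% and 0.0437%), with Agtr1a alone under that unadjusted level. For the difference of bleomycin responses DESeq2 called 1 of 5 (0.417% of all genes) and edgeR 0 of 5 (0.00546%), again with 1 member at an unadjusted p under 0.05. The median log2 fold change of the 5 members was -0.42 to 0.46 over the 6 contrasts, and that of all genes tested was 0.003 to 0.023.

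**Figure D4:**
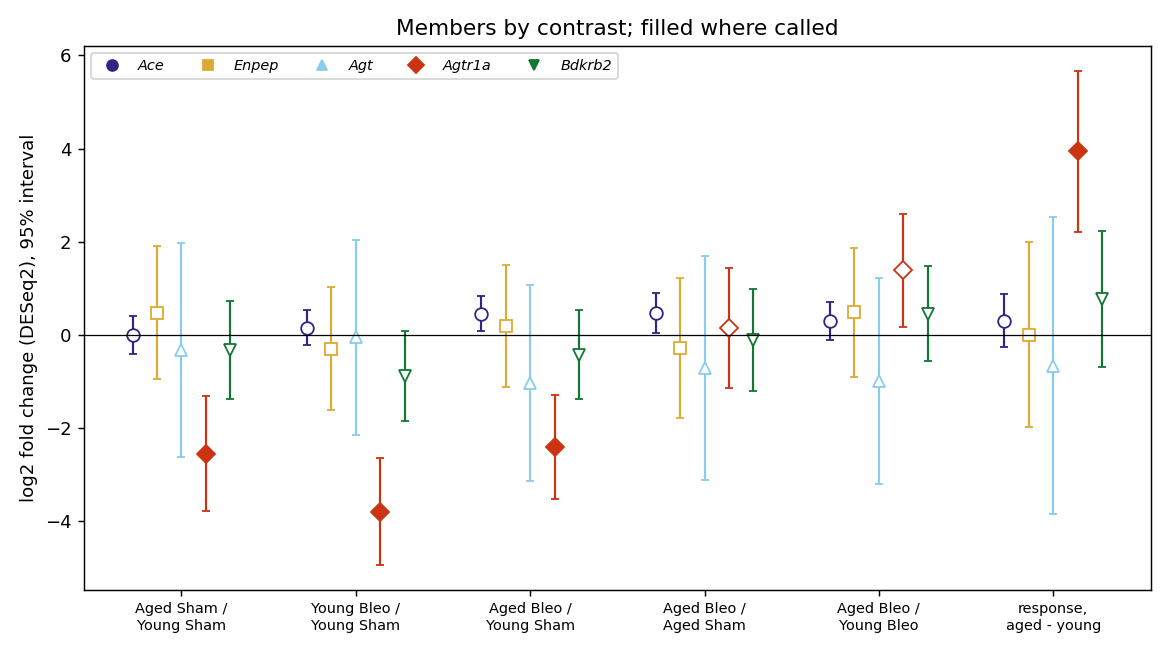
DESeq2 log2 fold changes of 5 members in 6 contrasts with 95% intervals, filled where called. The filled symbols are all Agtr1a, at -2.55, -3.79, -2.40 and 3.94, and the intervals of Enpep, Agt and Bdkrb2 cross 0 in each contrast.

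Ace (ENSMUSG00000020681, mm10 chromosome 11, 105967945 to 105989964, protein-coding) was abundant in every library. Its normalized counts were 68580, 75362, 65209, 51781 and 65231 in Young Sham and 88896, 69338, 57007 and 75859 in Young Bleo. The Aged Sham libraries had 45496, 82504 and 67086, and the Aged Bleo libraries 114627, 90520, 78194 and 75215. The groups overlapped, and Aged Bleo held the 2 highest values. Within a group the highest library was at most 1.81 times the lowest.

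Ace averaged 89639 ± 17928 (SD, n = 4) across Aged Bleo libraries against 65233 ± 8584 (SD, n = 5) for Young Sham, which is 0.46 higher on the log2 scale (SE 0.19, 95% interval 0.08 to 0.84, DESeq2 adjusted p = 0.111, range over 13 alternatives 0.0475 to 0.419). Against Aged Sham (65029 ± 18590, SD, n = 3) the log2 fold change of Aged Bleo was also 0.46 (95% interval 0.03 to 0.89, DESeq2 adjusted p = 0.220). Neither comparison was called. The adjusted p of 0.0475 came from DESeq2 on the compared groups alone, where the log2 fold change of 0.46 stayed under the threshold of 0.5. Young Bleo (72775 ± 13290, SD, n = 4) differed from Young Sham by 0.16 with an interval of -0.22 to 0.54, and Aged Sham differed from it by -0.0045 with an interval of -0.42 to 0.41.

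The highest Ace value, in Aged Bleo replicate 1, came with the highest Lyz2 count, 161722. Without that library the log2 fold change against Young Sham was 0.32. The part of leukocyte RNA in the Ace values was not tested. An antisense gene, Gm11651, shares 295 exon bases with Ace between 105972361 and 105985694, and the strand setting of the counting is not given in the sources used here. Gm11651 had 510 to 5074 counts per library against 22768 to 146200 for Ace.

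Bdkrb2 (ENSMUSG00000021070, mm10 chromosome 12, 105563172 to 105593071, protein-coding) was the second most abundant member and spread widely within groups. Its normalized counts were 2153, 3815, 2661, 1153 and 2336 in Young Sham, and 1475, 1105, 357 and 2339 in Young Bleo. Aged Sham had 759, 2353 and 2698, and Aged Bleo 1386, 706, 3171 and 1972. The groups overlapped, and Young Bleo replicate 19 was the lowest of all libraries.

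Bdkrb2 averaged 2424 ± 960 (SD, n = 5) for Young Sham, 1937 ± 1034 (SD, n = 3) for Aged Sham, 1809 ± 1045 (SD, n = 4) for Aged Bleo and 1319 ± 824 (SD, n = 4) for Young Bleo. The log2 fold change of Young Bleo against Young Sham was -0.88 (SE 0.49, 95% interval -1.84 to 0.08, DESeq2 adjusted p = 0.241). Without Young Bleo replicate 20 it was -1.31, and the DESeq2 adjusted p of 0.04997 then passed the threshold. The other contrasts ran from -0.42 to 0.78 in log2 fold change, with DESeq2 adjusted p-values of 0.686 to 0.959.

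The aerocyte markers (Car4, Ednrb, Apln, Tbx2 and Fibin) fell in the same comparison, and none was at 0. The part of this shift in the Bdkrb2 values was not tested. The Bdkrb2 model of the table ends before that of GENCODE M21, where the gene reaches 105595237, so reads past its end may not have been counted.

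Enpep (ENSMUSG00000028024, mm10 chromosome 3, 129269175 to 129332720, protein-coding) was low and uneven. Its normalized counts were 138, 215, 260, 78.4 and 12.7 in Young Sham and 74.5, 63.4, 68.3 and 253 in Young Bleo. The Aged Sham libraries had 202, 230 and 157, and the Aged Bleo libraries 73.7, 67.8, 379 and 124. Libraries of one group differed widely outside Aged Sham. The highest Young Sham library was 20.5 times the lowest, and 1 Young Bleo library was more than 3 times as high as each of the other 3.

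The largest log2 fold change of Enpep was 0.49, for Aged Bleo against Young Bleo, with a 95% interval of -0.90 to 1.87 and a DESeq2 adjusted p of 0.918. Its adjusted p was 0.825 or more in all 6 contrasts. The intervals were wide, and a difference was not detectable at this spread.

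Agt (ENSMUSG00000031980, mm10 chromosome 8, 124556534 to 124569706, protein-coding), which is made mainly by the liver, had normalized counts of 51.9, 30.5, 18.4, 4.68 and 35.2 in Young Sham and 53.7, 0, 1.10 and 54.1 in Young Bleo. The Aged Sham libraries had 2.00, 40.4 and 24.7, and the Aged Bleo libraries 5.49, 14.0, 22.8 and 13.0. The groups overlapped fully. Young Bleo held both the highest and the lowest library. The lowest DESeq2 adjusted p over the contrasts was 0.641, for Aged Bleo against Young Sham, where the log2 fold change was -1.03 (95% interval -3.13 to 1.07).

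Mas1 (ENSMUSG00000068037, mm10 chromosome 17, 12841079 to 12868143, protein-coding) had 9 counts in all. There were 5 in Young Bleo replicate 18, 3 in Aged Bleo replicate 3 and 1 in Young Sham replicate 22, and the other 13 libraries had 0, which allows up to 3 counts in each. This limit covers counting error only. Mas1 RNA was at the detection limit, and a difference between groups was not detectable at this depth.

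The genes most like each member were ranked over the 16 libraries among 13774 genes whose normalized counts averaged 50 or more, by Pearson's r of log2(normalized count + 1), as a description with no test. Ace was most like Sox7 (r = 0.910), Armcx1 (0.899) and Il13ra1 (0.883). Bdkrb2 was most like Rhbdd1 (0.956), Sema3f (0.951) and the read-through gene Dyx1c1Ccpg1 (0.947). For Agtr1a these were Gm26737 (0.902), Colgalt2 (0.901) and Zfp62 (0.896), and for Enpep Zc3hav1l (0.853) and Aldh1l1 (0.826), with D130058E05Rik between the other two.

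After the group means were subtracted, Zc3hav1l was still the first for Enpep (r = 0.891). For Agtr1a the first was then Rnpep (0.925), an aminopeptidase on the list of other pathway genes, for Ace it was Aqp1 (0.945), a water channel of capillary ECs, and for Bdkrb2 it was Akt1 (0.974). In each library both genes of a pair share its depth and cell mixture, which differed between libraries.

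The other genes of both systems were taken from a list of 35. Of the 25 with an adjusted p, DESeq2 called 7 in Young Bleo against Young Sham (4 higher, 3 lower; 13.9% of all genes), 6 in Aged Bleo against Young Sham (5 higher, 1 lower; 9.73%), 2 in Aged Sham against Young Sham (3.36%) and 2 in Aged Bleo against Aged Sham (5.85%). It called 1 of 26 in Aged Bleo against Young Bleo (1.01%) and 1 of 28 for the difference of responses (0.417%). With edgeR these counts were 5, 2, 0, 1, 0 and 0 of 26, beside 9.78%, 5.69%, 0.862%, 0.797%, 0.0437% and 0.00546% of all genes. Whether the list as a whole differs from the background was not tested, and most contrasts rest on 1 or 2 DESeq2 calls. At an unadjusted p under 0.05, the contrasts with 0 edgeR calls had 5, 6 and 2 genes.

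Of 10 genes for enzymes that cut angiotensin peptides, DESeq2 called 2 higher (Anpep and Prcp) and 1 lower (Nln) in Young Bleo than in Young Sham, beside 13.9% of all genes, and edgeR called 2 (Anpep and Prcp). Anpep, aminopeptidase N, had 45.3, 81.6, 18.4, 12.9 and 93.9 normalized counts in Young Sham, and 384, 300, 197 and 178 in Young Bleo. The groups did not overlap, and the log2 fold change was 2.38 (SE 0.54, DESeq2 adjusted p = 0.000292; edgeR 0.0127). In Aged Bleo it was 317, 242, 69.0 and 119, against 57.9, 41.5 and 54.8 in Aged Sham (log2 fold change 1.86, SE 0.62, DESeq2 adjusted p = 0.0442; edgeR 0.157), and 5 of 7 fits without 1 library lost that call, at adjusted p-values of 0.0838 to 0.242. The rise of Anpep against Young Sham by 1.87 in Aged Bleo (DESeq2 adjusted p = 0.00844; edgeR 0.0513) was lost without Aged Bleo replicate 1 (adjusted p = 0.105) or 2 (0.0582).

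Prcp, which removes the last residue of angiotensin II, rose from 1823 ± 211 (SD, n = 5) for Young Sham to 3917 ± 612 (SD, n = 4) for Young Bleo, a log2 fold change of 1.10 (SE 0.24, DESeq2 adjusted p = 0.000167; edgeR 0.00739). The groups did not overlap. In Aged Bleo (2910 ± 1026, SD, n = 4) its log2 fold change against Young Sham was 0.67 (DESeq2 adjusted p = 0.0486; edgeR 0.0899), and 6 of 9 fits without 1 library lost the call, at 0.0949 to 0.257. Ctsd, a lysosomal protease that can act on angiotensinogen, averaged 86034 ± 33317 (SD, n = 4) for Aged Bleo and 52233 ± 5239 (SD, n = 5) for Young Sham, higher by 0.72 (DESeq2 adjusted p = 0.0117; edgeR 0.0452), and without Aged Bleo replicate 1 by 0.43 (DESeq2 adjusted p = 0.125), which ended the call.

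Some leukocyte markers were also higher. Against Young Sham, DESeq2 called 3 of 7 higher in Young Bleo (Cd68, Lyz2 and Ptprc, beside 13.9% of all genes, 3 with edgeR). There 5 of the 7 had a positive log2 fold change. In Aged Bleo it called these and Csf1r higher (9.73%, 4 with edgeR), and all 7 were positive. Against Aged Sham it called 3 higher in Aged Bleo (Cd68, Csf1r and Lyz2, beside 5.85%, 2 with edgeR). The 7 genes of that list summed to 3251 to 5308 in Young Sham and 7497 to 23088 in Aged Sham, against 17733 to 53841 in Young Bleo and 25585 to 171819 in Aged Bleo. Lyz2 made up most of these sums, while Ptprc, which encodes the CD45 used to gate leukocytes out, was at 0 to 54.4 in Young Sham and 117 to 938 in Aged Bleo. Aged Bleo replicate 1 was the highest for Lyz2, Ctsd and Ace. The part of leukocyte RNA in the values of Anpep, Prcp and Ctsd was not tested.

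In the whole angiotensin arm of the list, DESeq2 called 4 of 15 tested genes in Young Bleo against Young Sham, beside 13.9% of all genes. Of these, 2 were higher and 2 lower (Nln and Agtrap). With edgeR 3 of 16 were called (9.78% of all genes), of which only Agtrap was lower. Nln, neurolysin, was lower by -0.65 (SE 0.21, DESeq2 adjusted p = 0.0144; edgeR 0.0509), and it lost the call without Young Bleo replicate 18 (0.0801) or 19 (0.0797). Agtrap, a protein that binds the type 1 receptor and favours its internalization, was at 7171 to 7933 in Young Sham and 4646 to 6365 in Young Bleo. Its log2 fold change was -0.51 (SE 0.15, DESeq2 adjusted p = 0.00709; edgeR 0.0371), close to the threshold of 0.5, so that it left the call at -0.45 without Young Bleo replicate 17, -0.46 without replicate 18 and -0.4985 without Young Sham replicate 24.

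In the kinin arm, Serping1, the C1 inhibitor that blocks plasma kallikrein, was highest in Aged Sham. Its normalized counts were 9456, 6959 and 10314 there, 3510 to 4722 in Young Sham, 3930 to 6141 in Young Bleo, and 2005, 2115, 5516 and 4306 in Aged Bleo. Aged Sham overlapped no other group. It was higher than Young Sham by 1.14 (SE 0.29, DESeq2 adjusted p = 0.00635; edgeR 0.0664), which was lost without Aged Sham replicate 15 (0.0598).

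With bleomycin Serping1 fell by 1.35 in aged mice (SE 0.30, DESeq2 adjusted p = 0.000892; edgeR 0.0461). Its bleomycin response in aged mice minus that in young mice was -1.73 (SE 0.40, DESeq2 adjusted p = 0.0130; edgeR 0.336), and without Young Bleo replicate 19 its adjusted p was 0.0513. The responses of Agtr1a and Serping1 differed between ages in opposite directions, each by DESeq2 and neither by edgeR.

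Klk1, tissue kallikrein, had 3.51 to 19.8 normalized counts in Young Sham against 302, 83.1 and 89.6 in Aged Sham and 46.3, 78.9, 211 and 109 in Aged Bleo. Young Bleo had 85.8, 1.04, 16.5 and 9.27, and was not called against Young Sham (log2 fold change 1.19, DESeq2 adjusted p = 0.371). Neither aged group overlapped Young Sham, while Young Bleo did. Against Young Sham the log2 fold change was 3.67 in Aged Sham (SE 0.88, DESeq2 adjusted p = 0.0030, edgeR adjusted p = 0.0760). Without Aged Sham replicate 13 it was 2.81, with a DESeq2 adjusted p of 0.09996. In Aged Bleo it was 3.17 (SE 0.81, DESeq2 adjusted p = 0.00241, edgeR adjusted p = 0.0397). Klk1 belongs to a family of near-identical genes, so the split of its reads is uncertain.

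Mesothelial markers also differed between the groups. The sum of Msln, Upk3b, Upk1b, Lrrn4 and Wt1 was 17.6 to 330 in Young Sham, with Wt1 at 0 throughout, 937 to 3396 in Aged Sham, 1261 to 3752 in Young Bleo and 154 to 1425 in Aged Bleo. Against Young Sham, DESeq2 called 3 of the 5 higher in Aged Sham (3.36% of all genes; 2 with edgeR), all 5 in Young Bleo (13.9%; 5 with edgeR) and 3 in Aged Bleo (9.73%; 2 with edgeR). For the difference of responses it called 2 of 5 lower (Msln and Upk3b; 0.417% of all genes; 0 with edgeR, 5 at an unadjusted p under 0.05), with a median log2 value of -5.02. It called 0 of 5 in Aged Bleo against Aged Sham (5.85% of all genes; 0 with edgeR, and 0 at an unadjusted p under 0.05 with each tool).

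Some fibroblast markers were called in the contrasts where Serping1 was. DESeq2 called 1 of 8 (Pdgfra) higher in Aged Sham against Young Sham (3.36% of all genes), 3 of 8 (Dcn, Dpt and Tcf21) lower in Aged Bleo against Aged Sham (5.85%), and 1 of 8 (Dcn) lower for the difference of responses (0.417%), against 0, 1 and 0 with edgeR (4 at an unadjusted p under 0.05 in the first and the last). The 8 genes summed to 7381 to 17277 in Young Sham, 8961 to 14445 in Young Bleo, 7170 to 13062 in Aged Sham and 4165 to 7209 in Aged Bleo, and none was at 0 throughout a group. The part of mesothelial and fibroblast RNA in the kallikrein and Serping1 values was not tested.

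Klkb1, plasma kallikrein, had 0 counts in all Young Sham libraries and 1.73, 25.99, 14.3 and 13.1 normalized counts in Young Bleo, at least 3.86-fold higher against a floor of 3 counts per library (2.72-fold without Young Bleo replicate 18; DESeq2 adjusted p = 0.0293; edgeR 0.0461). Of 4 fits that each left out a Young Bleo library, 3 gave no adjusted p and the other gave 0.0689.

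**Figure D5:**
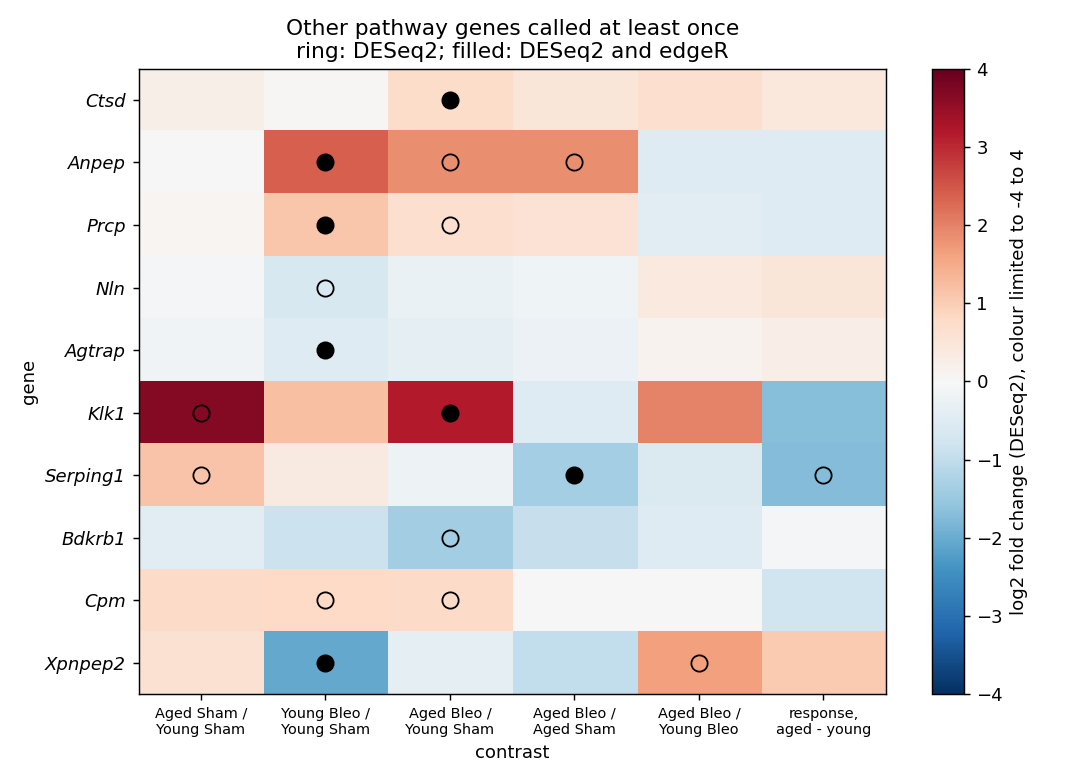
DESeq2 log2 fold changes of 10 of the 11 other pathway genes called in at least 1 contrast, by colour (limited to -4 to 4), with a ring where DESeq2 called the gene and a filled point where edgeR did too. Klkb1 is left out because Young Sham had 0 counts. The filled points lie in columns with Young Sham as reference, besides Serping1 in Aged Bleo against Aged Sham.

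The B1 kinin receptor Bdkrb1, which is known to be induced by injury, was called higher in no contrast. Lungs were taken at a single time after bleomycin, so a rise at another time would not be seen. Its normalized counts averaged 152 ± 53.5 (SD, n = 5) for Young Sham, 110 ± 8.63 (SD, n = 3) for Aged Sham, 82.9 ± 17.5 (SD, n = 4) for Young Bleo and 57.9 ± 36.2 (SD, n = 4) for Aged Bleo. Aged Bleo was lower than Young Sham by -1.39 (SE 0.41, DESeq2 adjusted p = 0.0114; edgeR 0.0638). The call was lost without Aged Bleo replicate 2 (0.0661) or Young Sham replicate 24 (0.0541).

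Among the kinin receptor and cleavage genes, DESeq2 called 2 of 6 tested in Young Bleo against Young Sham (Cpm higher, Xpnpep2 lower; 13.9% of all genes) and edgeR 1 (Xpnpep2). Xpnpep2, a membrane aminopeptidase P that breaks bradykinin down, fell from 6345, 7383, 6541, 4818 and 7661 normalized counts in Young Sham to 835, 1112, 1111 and 3321 in Young Bleo, without overlap (log2 fold change -2.04, SE 0.41, DESeq2 adjusted p = 3.44e-05; edgeR 0.00991). In Aged Sham it was 6007, 9477 and 14268, the highest group mean, and in Aged Bleo 1857, 3983, 7542 and 6543. Aged Bleo against Aged Sham gave -0.99 (DESeq2 adjusted p = 0.212), and the bleomycin responses of the ages were not called different (1.04, DESeq2 adjusted p = 0.701). Aged Bleo was higher than Young Bleo by 1.64 (SE 0.43, DESeq2 adjusted p = 0.0211; edgeR 0.270), and 5 of 8 fits without 1 library lost that call, at 0.101 to 0.155. The libraries low in Xpnpep2 were also low in the aerocyte markers, whose part was not tested.

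Cpm, a carboxypeptidase that trims kinins into B1 receptor ligands, was higher than in Young Sham by 0.79 in Young Bleo (SE 0.27, DESeq2 adjusted p = 0.0276; edgeR 0.0669) and by 0.78 in Aged Bleo (SE 0.27, DESeq2 adjusted p = 0.0410; edgeR 0.0959). Aged Sham, at 354, 384 and 218 normalized counts, was 0.77 above Young Sham without a call (DESeq2 adjusted p = 0.144), and Aged Bleo differed from it by 0.0072 (95% interval -0.60 to 0.61). The calls against Young Sham were lost in 7 of 9 fits without 1 library, at adjusted p-values of 0.0507 to 0.0843, and in 5 of 9, at 0.0860 to 0.195. The remaining 24 genes of the list were called in no contrast by DESeq2.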

How the data were processed

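Lung ECs were profiled by RNA-seq. Per the labels the cDNA came from a SMART-Seq v4 kit, whereas the study's methods name TruSeq, and which was used is not settled here. The authors aligned reads with STAR (2.5.2b in the submitters' processing notes) to mm10 and deposited raw read counts per gene, made with Subread featureCounts. They also deposited FPKM values, scaled by gene length and library total, which were used here for levels between genes. The handling of multi-mapped reads is not given in the sources used here.

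Raw counts of all 43346 genes in 16 libraries (20.9 to 71.0 megacounts each) were fitted with DESeq2 1.42.0 in R 4.3.3, in 1 model with group as its term, median-ratio size factors and unshrunken log2 fold changes. P-values were adjusted over all genes tested (Benjamini-Hochberg), and 5 pairwise contrasts and the difference of bleomycin responses were taken. Normalized counts are counts divided by size factors, and 95% intervals are 1.96 SE either side. Alternatives were edgeR 4.0.16 quasi-likelihood with TMM and its expression filter, DESeq2 with TMM factors, with genes of 10 or more counts in at least 1 library, on the compared groups alone, and without each library in turn. The tests were tried on simulated data. Members and lists were chosen with earlier results of these data known. Named genes were all members, listed pathway genes called in any contrast, and Ren1, Kng1, Agtr1b, Agtr2 and Bdkrb1, with the genes most like a member. Kng2 was added after its values were seen. A further listed gene is not reported here. Genes were matched by identifier, and sequences and gene models came from GENCODE M21.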

Additional observations from a re-analysis of the deposited data

Results flagged for a closer look

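Of 48 groups of 4 or 5 libraries examined for a library far from the others, 4 held one. Chance gives about 1 in 20 such groups for normally distributed values, which counts near 0 are not. Enpep was at 252.7 normalized counts in Young Bleo replicate 20, with the next library at 74.51. Xpnpep2 was at 3321 in the same library, with the next at 1112. Without that library DESeq2 called 3339 of all genes in Young Bleo against Young Sham, where it called 2578 with it. The calls rose from 191 to 470 for Aged Bleo against Young Bleo and from 81 to 232 for the difference of responses. Each was the highest count among the fits without 1 library. Mas1 was at 5.199 in Young Bleo replicate 18 (5 counts) and at 0 in the other 3 libraries of that group, where any count would be flagged. Nln was at 781.4 in Young Sham replicate 24, below the next library at 1095.

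The bleomycin responses of 2 genes differed between ages by a test of the difference itself. For Agtr1a, aged minus young was 3.941 on the log2 scale (DESeq2 adjusted p = 0.0102, edgeR adjusted p = 0.336), with a Young Bleo mean below Young Sham and overlapping aged groups. For Serping1 it was -1.7285 (DESeq2 adjusted p = 0.0130, edgeR adjusted p = 0.336), with Aged Bleo below Aged Sham in every library.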

How the results depend on the processing

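Each DESeq2 call of Agtr1a kept its direction in every alternative, and lost its call only with edgeR, for Aged Sham against Young Sham and for the difference of responses. With edgeR the members called numbered 0 in both of these contrasts. The other pathway genes called with edgeR numbered 0 for Aged Sham against Young Sham, 2 for Aged Bleo against Young Sham, 1 for Aged Bleo against Aged Sham, 0 for Aged Bleo against Young Bleo and 0 for the difference of responses. On the compared groups alone DESeq2 called 0 of them for Aged Bleo against Young Bleo. The cause was not tested.

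Without each library in turn, the members called for Young Bleo against Young Sham ranged from 1 to 2. The other pathway genes called ranged from 1 to 2 for Aged Sham against Young Sham, 3 to 9 for Young Bleo against Young Sham, 2 to 7 for Aged Bleo against Young Sham, 1 to 2 for Aged Bleo against Aged Sham, 0 to 1 for Aged Bleo against Young Bleo and 0 to 1 for the difference of responses.

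Uncalled log2 fold changes that crossed 0 in these fits had the following ranges. For Aged Sham against Young Sham, Ace ran from -0.2115 to 0.1999, Agt from -1.0447 to 0.2042 and Bdkrb2 from -0.639 to 0.0623. For Young Bleo against Young Sham, Enpep ran from -1.0288 to 0.0484 and Agt from -0.618 to 0.3685, and for Aged Bleo against Young Sham Enpep ran from -0.6665 to 0.5367. For Aged Bleo against Aged Sham, Agt ran from -1.2324 to 0.0164, Agtr1a from -0.1057 to 0.4221 and Bdkrb2 from -0.517 to 0.2171, and for Aged Bleo against Young Bleo Enpep ran from -0.3758 to 1.2263. For the difference of responses, Enpep ran from -0.8576 to 0.7449 and Agt from -1.1871 to 0.064. The cause was not tested.

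Over all genes edgeR called 158, 1793, 1043, 146, 8 and 1 in the 6 contrasts, against 622, 2578, 1802, 1084, 191 and 81 with DESeq2. No paired analysis was possible because the replicate numbers in the labels do not repeat between groups. The 9 counts of Mas1 and the 417 of Agt limit what can be said of both.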
